A study of Homo sapiens with 18 samples.

Results

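The data described here are the RNA levels of 8 genes of fibroblast growth factor (FGF) signalling in human embryonic stem cells (hESCs): the ligands FGF2, FGF4 and FGF8, the intracellular family member FGF13, and the receptors FGFR1, FGFR2, FGFR3 and FGFR4. They were chosen by name, as 8 of the 23536 gene-level features of the array, and each had 1 feature. The hESC lines H9, HS360 and HS401 were cultured in normoxia (21% O2) or hypoxia (4% O2) for 2 h, 24 h or 7 d, with 1 Affymetrix Human Exon array for each line, oxygen level and time, which gave 18 arrays and 6 groups of 3. All cultures grew without feeder cells on Matrigel in mTeSR1 medium and had no other treatment. Each line is a single derivation, and the 3 samples of a group are the 3 lines. The tests take out the level of each line, so they rest on the spread of single arrays around the line and group levels. A difference between lines stands for the cultures of these lines only. The stock cultures had been kept on human foreskin fibroblasts. The plates of the 7 d time were moved into their condition soon after seeding, those of 24 h later and those of 2 h last. By that schedule the plates of 2 h and 24 h were of similar age at harvest and those of 7 d were older. For 7 d against 2 h or 24 h, the time in a condition and the age of a plate thus cannot be told apart. Plates were kept in normoxia before the move, so the normoxic times do not count a change of oxygen level.

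FGFs are secreted proteins that bind receptor tyrosine kinases together with heparan sulfate. The bound receptor signals through the adaptor FRS2 to RAS and the kinases MEK and ERK, and to PI3 kinase and phospholipase C gamma. In hESCs this pathway supports self-renewal, and FGF2 is a standard component of the medium, mTeSR1 included. The arrays read the RNA the cells made, not the FGF2 supplied, nor the activity of any receptor.

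No difference between hypoxia and normoxia passed a threshold for any of the 8 genes at any time. The time in culture gave differences for the receptors. FGFR1, FGFR2, FGFR3 and FGFR4 were all higher at 7 d than at 2 h, by between 1.341-fold and 1.611-fold, whereas FGF2, FGF4, FGF8 and FGF13 passed no threshold. Markers of fibroblasts fell over the same interval. With their level in the fit, a choice made after the data were seen, no receptor remained past a threshold. The marker level itself differs by time and the errors were larger in that fit, so it cannot separate the markers from time. Between lines, FGF4 was higher and FGFR1 lower in HS401 than in H9, and FGF2 was lower in HS401 than in HS360.

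Values are log2 RMA intensities, on which a difference of 1 is a doubling. Groups were compared with limma over all 18 arrays, with the hESC line as a block. A gene passed at a Benjamini-Hochberg adjusted p under 0.05 over the 23536 features, and the thresholds used in the study, an unadjusted p under 0.01 with a fold change over 1.5, were applied beside it. The mean of each of the 8 genes lay above those of all 339 olfactory receptor genes, which hESCs are not known to use, the lowest being FGF8 at 7.80 against a highest olfactory mean of 7.75. The 6 FGF8 arrays of H9 lay at 7.40 to 7.65, below that highest olfactory mean. FGF4 and FGF13 (means of 7.95 each) and FGF8 were also near markers of other lineages, such as CDX2 (medians of 7.70 to 7.88 by time). FGFR3 was at the same level at 2 h and 24 h (medians of 7.95 and 7.94). The comparison thus does not show that FGF4, FGF8 and FGF13, or FGFR3 at these 2 times, were detected. Features differ in brightness, so levels were not otherwise compared between genes. The hESC markers summed to between 17820 and 24950 intensity units on every array (12 of 13 were measured). The sum does not speak for each marker. POU5F1 had medians of 7.54, 7.57 and 6.95 at 2 h, 24 h and 7 d, below the highest olfactory mean. The oxygen labels were checked with DDIT4, HK2, IGFBP2 and MYC, which were higher in hypoxia over the mean of the times by 1.53, 0.80, 0.76 and 0.55, all with a limma adjusted p of 0.0251 or lower. In 5 of the 18 arrays the lower quartile of all features was low (5.64 to 5.70, against 5.89 to 6.17 in the other 13), and these 5 were all of 2 h or 24 h. They were the hypoxic H9 arrays of both these times, the normoxic HS401 array of 2 h and both HS401 arrays of 24 h.

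**Figure D1:**
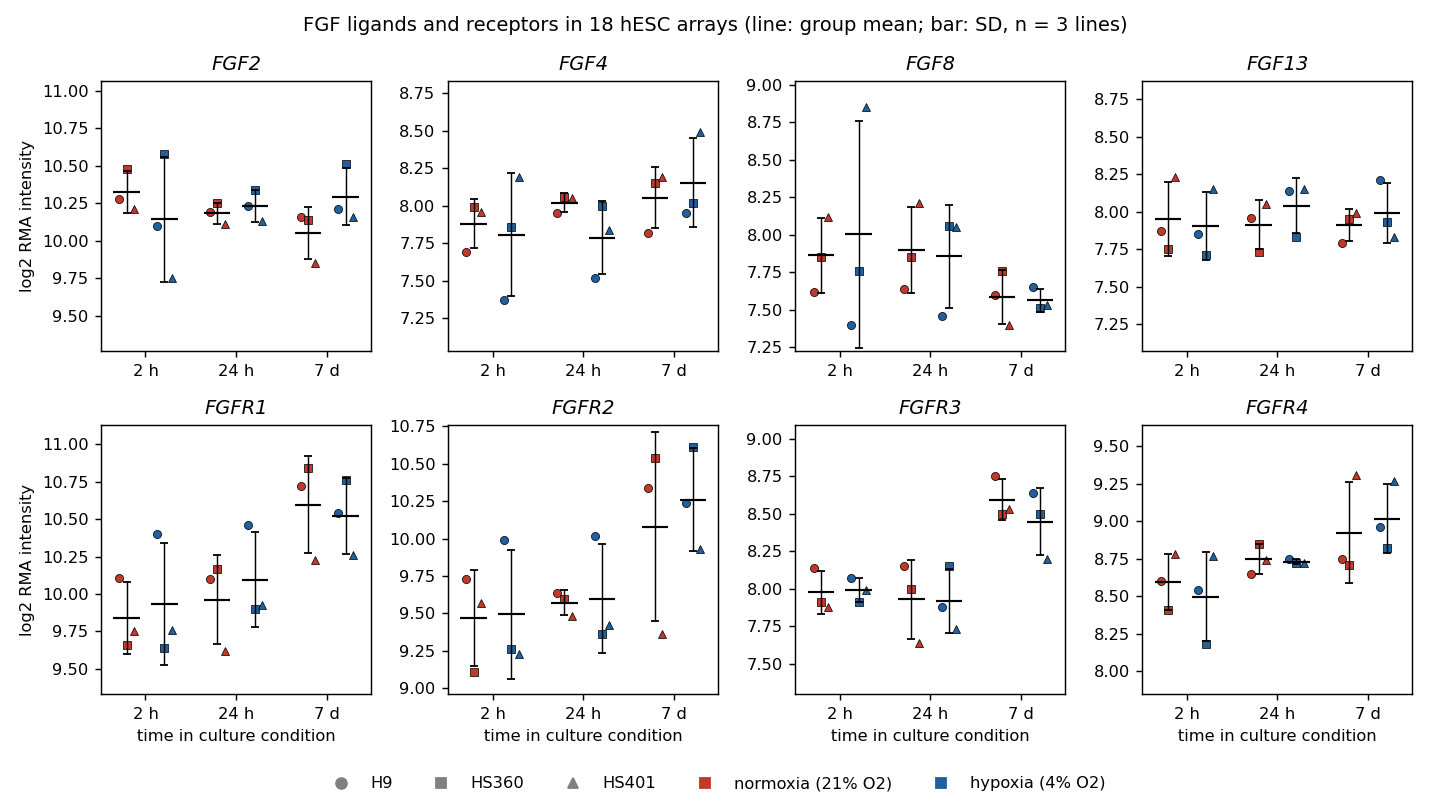
Level of each gene (log2 RMA intensity, all panels span the same range) by time and oxygen level, with 1 point per array, the group mean as a line and the SD as a bar (n = 3). The 7 d arrays stand high for the 4 receptors in the lower row, and for FGFR3 all 6 of them lie above the other 12.

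Annotated start sites were at hand for 5 of the 8 genes. The 300-base windows from 250 bases before to 50 bases after the start were taken from RefSeq on GRCh38.p14. They are shown for FGF2, since it is the ligand supplied in culture and the one with the largest oxygen value at 7 d, and for the 3 of the receptors that moved over time and had a window. For FGFR2 and FGFR4 the first of 5 and of 2 listed windows is printed. Capitals mark ACGTG and GCGTG, the core letters bound by hypoxia-inducible factors, read on both strands, so that CACGT and CACGC count too and CACGTG counts as 2 overlapping matches.
FGF2, chr4:122826581-122826880, plus strand: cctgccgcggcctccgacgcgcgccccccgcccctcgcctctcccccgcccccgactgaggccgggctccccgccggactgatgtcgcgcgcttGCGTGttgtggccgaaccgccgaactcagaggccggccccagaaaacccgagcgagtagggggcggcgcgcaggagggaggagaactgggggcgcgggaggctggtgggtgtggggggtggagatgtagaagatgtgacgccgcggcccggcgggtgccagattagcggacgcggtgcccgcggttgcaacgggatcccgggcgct
FGFR2, chr10:121598395-121598694, minus strand: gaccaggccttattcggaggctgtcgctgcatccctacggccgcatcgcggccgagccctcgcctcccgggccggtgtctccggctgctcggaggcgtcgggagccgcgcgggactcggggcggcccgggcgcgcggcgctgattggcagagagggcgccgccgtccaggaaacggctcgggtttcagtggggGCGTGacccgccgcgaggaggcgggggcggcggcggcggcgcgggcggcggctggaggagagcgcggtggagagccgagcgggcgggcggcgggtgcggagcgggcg
FGFR3, chr4:1793043-1793342, plus strand: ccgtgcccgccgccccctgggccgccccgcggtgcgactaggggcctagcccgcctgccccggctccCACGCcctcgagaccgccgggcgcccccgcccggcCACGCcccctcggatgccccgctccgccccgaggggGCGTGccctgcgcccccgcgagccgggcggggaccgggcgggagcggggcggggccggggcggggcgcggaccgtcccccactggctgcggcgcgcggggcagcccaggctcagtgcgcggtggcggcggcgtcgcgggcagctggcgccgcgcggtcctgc
FGFR4, chr5:177086665-177086964, plus strand: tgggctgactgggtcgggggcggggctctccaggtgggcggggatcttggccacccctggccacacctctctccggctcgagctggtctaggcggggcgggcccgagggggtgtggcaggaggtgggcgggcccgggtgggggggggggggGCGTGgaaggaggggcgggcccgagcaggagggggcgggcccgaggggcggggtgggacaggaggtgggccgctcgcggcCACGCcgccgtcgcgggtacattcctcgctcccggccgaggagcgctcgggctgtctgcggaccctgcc
The letters occurred 1 time in the FGF2 window, 1 time for FGFR2, 3 times for FGFR3 and 2 times for FGFR4. They were present in 7 of the 11 windows of the 5 genes and in 48.4% of all 35116 windows of this length. The printed windows were 74.7%, 79.3%, 86.3% and 78.7% G and C in the same order, against a median of 58.7% over all windows. Such a match is a description of the letters and does not show a bound site.

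The first question was whether oxygen level changed the ligands and FGF13. FGF2, basic FGF, was measured in normoxia at 10.28, 10.48 and 10.21 (H9, HS360, HS401) at 2 h, at 10.19, 10.25 and 10.11 at 24 h, and at 10.16, 10.14 and 9.85 at 7 d. In hypoxia the corresponding values were 10.10, 10.58 and 9.75 at 2 h, 10.23, 10.34 and 10.13 at 24 h, and 10.21, 10.51 and 10.16 at 7 d. Hypoxia was thus lower in H9 and HS401 at 2 h and higher in all 3 lines at 24 h and 7 d, and at 7 d the groups only touched, the lowest hypoxic and the highest normoxic array both being at 10.16. The difference was -0.18 (SE 0.13) at 2 h, 0.05 (SE 0.13) at 24 h and 0.24 (SE 0.13) at 7 d, with limma adjusted p of 1, 1 and 0.764. The change of this difference from 2 h to 7 d was 0.42 (SE 0.18), with an unadjusted p of 0.0363 and a limma adjusted p of 0.997, and it was 0.25 without HS401. Beside it, 11 of the 12 fibroblast markers had a higher mean in hypoxia at 7 d, as had 61.6% of all features, with 2 past the study's thresholds (COL1A1 by 0.63 and COL3A1 by 0.63), which 0.867% of all features passed. By line, the summed intensity of these markers at 7 d was 8558 in normoxia and 13130 in hypoxia for H9. It was 8220 and 7634 for HS360, and 8706 and 14130 for HS401. The FGF2 differences of these lines were 0.05, 0.37 and 0.31. The FGF2 value at 7 d was 0.20 once the mean of these markers was a term of the fit.

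FGF4, a secreted FGF made by the pluripotent cells of the early embryo in the mouse, differed by -0.07 (SE 0.14), -0.23 (SE 0.14) and 0.10 (SE 0.14) at 2 h, 24 h and 7 d. At 24 h the hypoxic array was the lower one in all 3 lines, with differences of -0.06 for HS360, -0.21 for HS401 and -0.43 for H9. FGF8, which in the mouse is needed for cell movement at gastrulation, had the widest single difference of all, 0.73 in HS401 at 2 h (8.85 against 8.12), but H9 and HS360 went the other way at that time, by -0.22 and -0.09. FGF13 is an FGF homologous factor, a protein that stays inside cells and binds sodium channels. It differed by -0.05, 0.13 and 0.08 (SE 0.14 each), and its 9 pairs of hypoxic and normoxic arrays ranged from -0.16 to 0.42.

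The receptors, the membrane kinases that the ligands activate, also showed no oxygen difference past a threshold. FGFR1 differed by 0.09, 0.13 and -0.08 at 2 h, 24 h and 7 d (SE 0.18 each), and FGFR2 by 0.02, 0.03 and 0.18 (SE 0.25 each). FGFR3 was within 0.01 at 2 h and 24 h and differed by -0.15 (SE 0.13) at 7 d, where H9 and HS401 were lower in hypoxia and HS360 was at 8.50 in both. FGFR4 differed by -0.10, -0.02 and 0.09 (SE 0.15 each).

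Over the 8 genes, the 72 pairs of arrays of 1 line and 1 time held 34 values higher in hypoxia, 36 lower and 2 equal. None of the 8 passed the adjusted threshold at 2 h, 24 h or 7 d or over the mean of the times, where 0%, 0.00425%, 0.0212% and 0.11% of all features passed. In limma 0 of the 8 had an unadjusted p under 0.05 in any of these 4 comparisons. At the study's thresholds none of the 8 passed either, and the shares of all features were 0.085%, 0.421%, 0.867% and 0.183%. Over the mean of the times the differences lay between -0.07 and 0.08, and the widest 95% interval, that of FGFR2, reached 1.305-fold. At a single time the bound farthest from no change was 1.582-fold at 2 h and 1.479-fold at 24 h, both for FGF8, and 1.64-fold at 7 d for FGFR2. The bounds of the other members lay nearer to no change. The line by oxygen interaction, which tests whether the lines differ in their response, had a limma adjusted p of 0.999 for each gene.

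**Figure D2:**
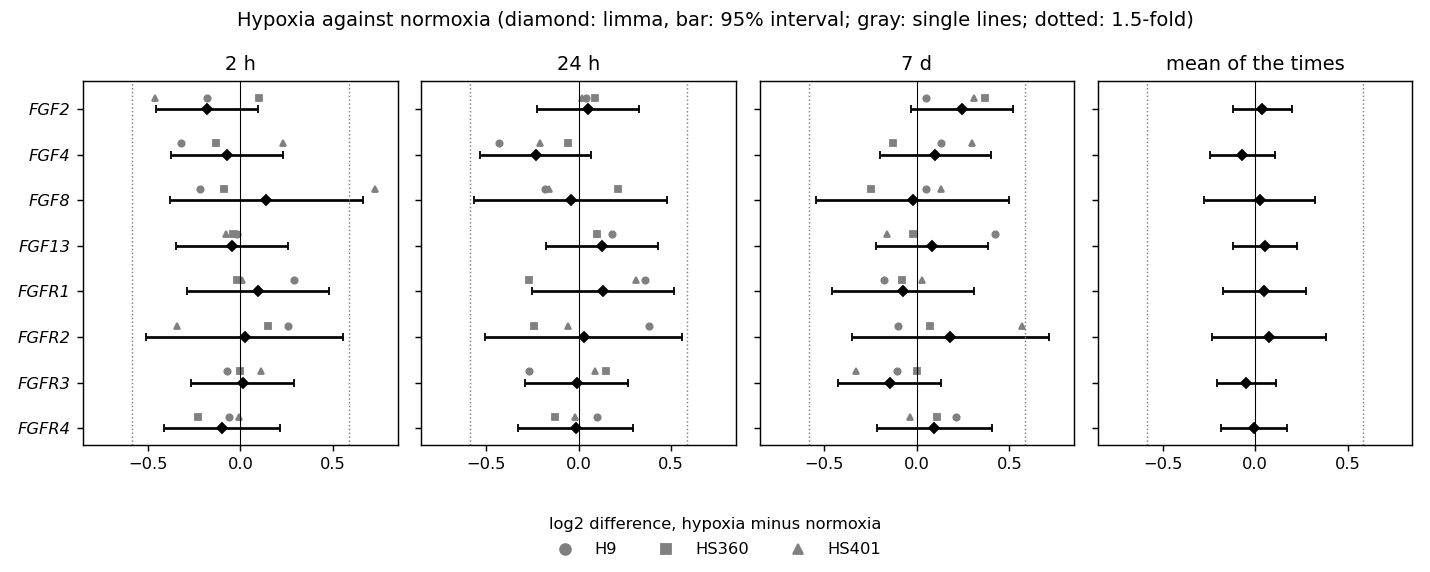
Difference between hypoxia and normoxia (log2, x axis) for each gene at each time and over the mean of the times, as limma estimates with 95% intervals, with the 3 single lines in gray. Every interval holds 0, and over the mean of the times none reaches the 1.5-fold marks.

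The second question was how the 8 genes changed with time in culture, over both oxygen levels. FGFR1, the receptor that many FGFs including FGF2 and FGF4 activate, was at 9.64 to 10.40 at 2 h (median 9.76, 6 arrays), 9.62 to 10.46 at 24 h (median 10.02) and 10.23 to 10.84 at 7 d (median 10.63). The 2 h and 7 d ranges overlapped only through the hypoxic H9 array of 2 h, and within each line both 7 d arrays lay above all 4 earlier ones, as for FGFR3 and for 2.28% of all features. The rise from 2 h to 7 d was 0.67 (SE 0.13, 1.593-fold, limma adjusted p = 0.00505), and from 24 h to 7 d it was 0.53 (SE 0.13, limma adjusted p = 0.0306).

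FGFR2, whose splice forms on epithelial and mesenchymal cells bind different ligands, lay at 9.11 to 9.99 at 2 h (median 9.42), 9.36 to 10.02 at 24 h (median 9.54) and 9.36 to 10.61 at 7 d (median 10.29). The array summary of a gene does not separate these splice forms. The rise was uneven between lines: from 2 h to 7 d it was 1.43 and 1.35 in HS360 (normoxia, hypoxia), 0.61 and 0.25 in H9, and -0.21 and 0.70 in HS401. The mean rise was 0.69 (SE 0.18, 1.611-fold, limma adjusted p = 0.0257), and it was 0.34 without HS360, with an adjusted p of 0.217. The rise of FGFR1 was also highest in HS360 (1.18 and 1.12), and without that line it was 0.43 with an adjusted p of 0.0541. A test of whether the change over time differed between lines gave an unadjusted p of 0.0242 for FGFR2 and 0.0696 for FGFR1, and limma adjusted p of 0.347 and 0.431. For FGFR4 and FGFR3 the same limma test gave an unadjusted p of 0.046 and 0.38, and adjusted p of 0.394 and 0.58.

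FGFR3, a receptor best known for restraining growth of cartilage, separated most cleanly. It lay at 7.88 to 8.14 at 2 h (median 7.95), 7.64 to 8.15 at 24 h (median 7.94) and 8.20 to 8.75 at 7 d (median 8.52), so that all 6 arrays of 7 d were above all 12 others. Such a separation was seen for 0.459% of all features. The rise was 0.54 from 2 h (SE 0.092, 1.451-fold, limma adjusted p = 0.00294) and 0.60 from 24 h (SE 0.092, limma adjusted p = 0.00266). It was also past the adjusted threshold within normoxia alone, at 0.62 (SE 0.13, limma adjusted p = 0.0329), where 0.412% of all features passed upward, and in hypoxia it was 0.46 (SE 0.13, limma adjusted p = 0.0701), where 1.59% passed.

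FGFR4, the receptor that FGF19 activates together with the co-receptor KLB, changed least of the 4. Its arrays were at 8.18 to 8.78 at 2 h (median 8.57), 8.65 to 8.85 at 24 h (median 8.73) and 8.71 to 9.31 at 7 d (median 8.89). The 3 ranges overlapped, but within each line both 7 d arrays were above both 2 h arrays, as was also true of FGFR1 and FGFR3 and of 5.74% of all features. The rise from 2 h was 0.42 (SE 0.10, 1.341-fold, limma adjusted p = 0.0200).

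All 4 receptors thus passed upward from 2 h to 7 d, against 4.72% of all features, and FGFR1 and FGFR3 from 24 h to 7 d, against 2.06%. The fit counts the normoxic and hypoxic arrays of a line and time as separate samples. Only 3 lines repeat the change over time, so the errors of these rises may be too small. At the study's thresholds FGFR1 and FGFR2 passed from 2 h to 7 d (1.09% of all features upward). The median of all features itself moved by 0.10 in the same direction. Between 2 h and 24 h no gene of the 8 passed and 0 had an unadjusted p under 0.05, where 0% of all features passed and 340 had such a p. Without the line as a block, FGFR2 and FGFR4 had adjusted p of 0.0915 and 0.0990. With any 1 line left out, 1 of the 4 receptors passed, and without the 5 arrays of low lower quartile all 4 did. The differences between hypoxia and normoxia in the size of the rise, from -0.17 to 0.19 for the receptors, had a limma adjusted p of 0.997.

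**Figure D3:**
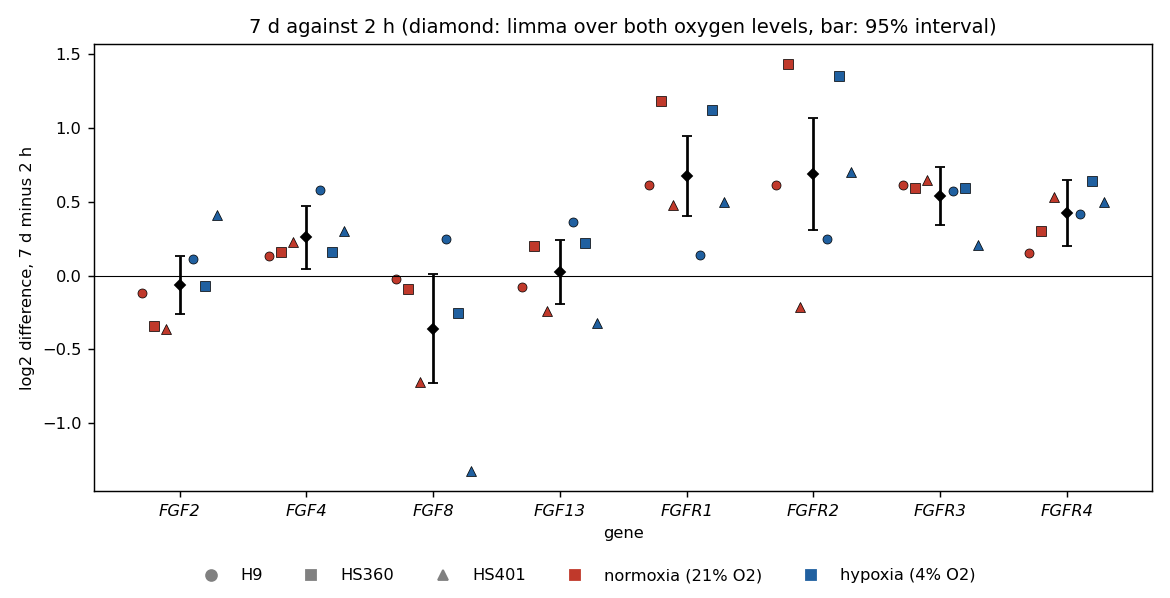
Difference between 7 d and 2 h (log2, y axis) for each gene, with 1 point for each line and oxygen level and the limma estimate over both oxygen levels with its 95% interval. The intervals of the 4 receptors lie above 0, and the points of FGFR2 and FGF8 are the most spread.

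Markers of other cell types moved over the same interval. Of the 12 fibroblast markers 11 had a lower mean at 7 d than at 2 h and 10 passed the adjusted threshold downward, against 4.14% of all features, among them DCN (decorin, -2.29), FAP (-2.16), COL6A3 (-1.66) and FBN1 (fibrillin, -1.53). Their summed intensity was 14840 to 25800 at 2 h, 16000 to 21200 at 24 h and 7634 to 14130 at 7 d, without overlap between 7 d and the earlier times. In bulk RNA fewer cells of a type and less RNA per cell cannot be told apart. Once the mean log2 level of these markers was a term of the fit, the change from 2 h to 7 d was 0.16 (SE 0.23) for FGFR1, 0.08 (SE 0.34) for FGFR2, 0.34 (SE 0.19) for FGFR3 and 0.26 (SE 0.22) for FGFR4, with limma adjusted p of 0.597 or higher. The marker level itself differs by time, and the errors of these estimates were larger than without it. Of the 8 neuroectoderm markers 7 had a higher mean at 7 d and 2 passed the adjusted threshold, OTX2 rising by 0.80 and ZIC1 by 0.62, with summed intensities of 1698 to 2137 at 2 h and 1985 to 3502 at 7 d. The 12 hESC markers went both ways, with 6 means higher and a median difference of 0.01. SOX2 rose by 0.48 and LIN28A by 0.26, the 2 that passed the adjusted threshold, while the medians of POU5F1 were 7.54 at 2 h and 6.95 at 7 d and those of PRDM14 were 9.61 and 9.02. The part of the neuroectoderm and hESC markers in the receptor values was not tested.

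**Figure D4:**
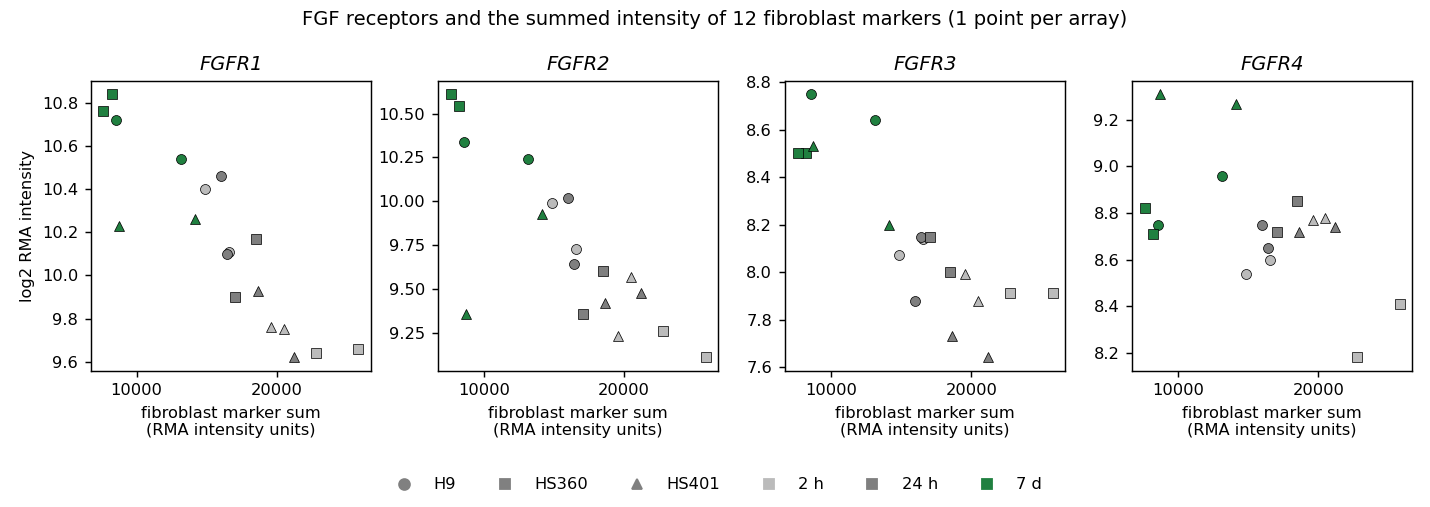
Level of the 4 receptors (log2 RMA intensity, y axis) against the summed intensity of 12 fibroblast markers (x axis), with 1 point per array. The arrays of 7 d, in green, hold the lowest marker sums (7634 to 14130) and most of the highest receptor values.

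None of the ligands passed over this interval, nor did FGF13. FGF2 changed by -0.06 (SE 0.092) from 2 h to 7 d, FGF13 by 0.02 (SE 0.10) and FGF4 by 0.26 (SE 0.10, unadjusted p = 0.0205, limma adjusted p = 0.128). FGF8 changed by -0.36 (SE 0.17, limma adjusted p = 0.229). Its largest falls were in HS401, from 8.12 to 7.40 in normoxia and from 8.85 to 7.53 in hypoxia, whereas H9 went from 7.62 to 7.60 and from 7.40 to 7.65. The line by time interaction of FGF8 had an unadjusted p of 0.0392 and a limma adjusted p of 0.385.

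Other genes of the pathway were followed as lists over the same interval, with the counts set against the 4.72% of all features that passed upward and 4.14% downward. Of 12 other ligands only FGF5, a ligand of the primed epiblast in the mouse, passed, falling by 0.75 (SE 0.21, limma adjusted p = 0.0360). FGF19, an endocrine FGF, fell by 0.42 (SE 0.11, limma adjusted p = 0.0290), the only one of 5 in its list to pass. FGF11, an intracellular homologous factor like FGF13, rose by 0.63 (SE 0.14, limma adjusted p = 0.0123), and it was higher in hypoxia at 24 h by 0.60 (unadjusted p = 0.00826, limma adjusted p of 1). Among 21 measured genes of heparan sulfate synthesis, FGF binding and carriers, 3 rose and 2 fell. The membrane heparan sulfate carrier GPC3 rose by 1.25 (SE 0.18, limma adjusted p = 0.00107) and the sulfotransferase HS6ST2 by 0.41, whereas the sulfotransferase NDST1 fell by 0.62 (SE 0.078, limma adjusted p = 0.00057) and the value of the extracellular sulfatase SULF1 was -0.61.

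Inside the cell, 0 of 15 measured adaptors and RAS-ERK kinases passed in limma and 6 had an unadjusted p under 0.05, the closest being MAP2K1, which encodes MEK1, at 0.23 (adjusted p = 0.0754). Of 10 feedback inhibitors SPRY1 rose by 0.42 (SE 0.12) and IL17RD (SEF) fell by 0.57 (SE 0.083). Of 10 transcription factors that ERK induces, EGR1 passed, rising by 0.81 (SE 0.13, limma adjusted p = 0.00238). In hypoxia at 7 d, 9 of these 10 factors and 9 of the 10 feedback inhibitors had a mean above that of normoxia, as had 61.6% of all features. None passed the adjusted threshold, and EGR1 (1.08, adjusted p = 0.103) and FOS (0.70, adjusted p = 0.407) passed the study's, as did 0.867% of all features. Of the 3 FLRT genes, whose membrane proteins bind FGF receptors, FLRT3 was lower in hypoxia at 7 d, at -1.82 (SE 0.24, limma adjusted p = 0.0339), where 0.00425% of all features passed downward, and FLRT2 fell from 2 h to 7 d by 0.47 (SE 0.13).

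The lines differed in some of the 8 genes. FGF4 lay at 7.37 to 7.95 in H9 (median 7.76, 6 arrays), 7.86 to 8.15 in HS360 (median 8.01) and 7.84 to 8.49 in HS401 (median 8.12). HS401 was above H9 by 0.40 (SE 0.10, limma adjusted p = 0.0179), against 4.9% of all features. FGFR1 was lower in HS401 than in H9, at -0.46 (SE 0.13, limma adjusted p = 0.0312), against 5.2%, with 9.62 to 10.26 in HS401 and 10.10 to 10.72 in H9. FGF2 was lower in HS401 (9.75 to 10.21) than in HS360 (10.14 to 10.58), at -0.35 (SE 0.092, limma adjusted p = 0.0233), against 5.71%. No gene of the 8 passed between HS360 and H9, where 3.34% of all features did. Without the 5 arrays of low lower quartile the adjusted p of the 3 differences were 0.0523, 0.315 and 0.0676. With the fibroblast marker mean in the fit, the FGFR1 difference was -0.37 with an adjusted p of 0.0696.

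FGF8 was high in HS401 at the early times. The line was at 8.12 and 8.85 at 2 h and 8.21 and 8.05 at 24 h (normoxia, hypoxia), against 7.40 to 8.06 in the H9 and HS360 arrays of those times, and at 7.40 and 7.53 at 7 d, against 7.51 to 7.76. Over all times HS401 was above H9 by 0.47 (SE 0.17, limma adjusted p = 0.113), which did not pass. The mesendoderm and endoderm markers were also higher in this line. All 10 had a higher mean in HS401 than in H9 and 9 passed the adjusted threshold, against 4.9% of all features upward. Among them were CER1 by 2.79, EOMES by 1.87 and MIXL1 by 1.17. Their summed intensity was 4702 to 7728 in HS401 against 1894 to 2797 in H9 and HS360. Unlike FGF8, the sum in HS401 stayed higher at 7 d, at 4702 and 4949 against 1912 to 2280 in the other lines. FGF17, a ligand of the FGF8 subfamily, was also higher in HS401 than in H9, by 0.88 (SE 0.12, limma adjusted p = 0.000379). It was the only one of 12 other ligands to pass the adjusted threshold. ETV5, a factor that FGF signalling induces, was higher by 1.07, the only one of 10 such factors to pass. The median difference of these 10 was 0.04, and 4.9% of all features passed upward. On the neuroectoderm side all 8 markers had a lower mean in HS401 than in H9 and 4 passed the adjusted threshold, against 5.2% of all features downward, with PAX6 at -0.84. Against HS360, 2 of the 8 passed downward, where 5.71% of all features did, and 1 upward. HS360 was itself lower than H9 past that threshold for 2 of the 8, where 3.34% of all features passed in either direction. The part of these markers in the FGF8 values was not tested.

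The genes whose levels ran most like each of the 8 were found by Pearson's r over the 18 arrays after removal of each line's mean, among 18369 named features. These are the highest of many, on shared arrays and time points, and are given as a description. For FGF8 they were WNT3 (r = 0.925), a secreted WNT ligand, TBXT (r = 0.908), a T-box transcription factor, and MIXL1 (r = 0.847), a homeobox transcription factor. WNT3 was at 8.20 and 8.48 in HS401 at 2 h and at 7.38 and 7.61 at 7 d (normoxia, hypoxia), and MIXL1 in normoxic HS401 went from 9.14 to 8.26. TBXT and MIXL1 are also in the list of mesendoderm markers.

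**Figure D5:**
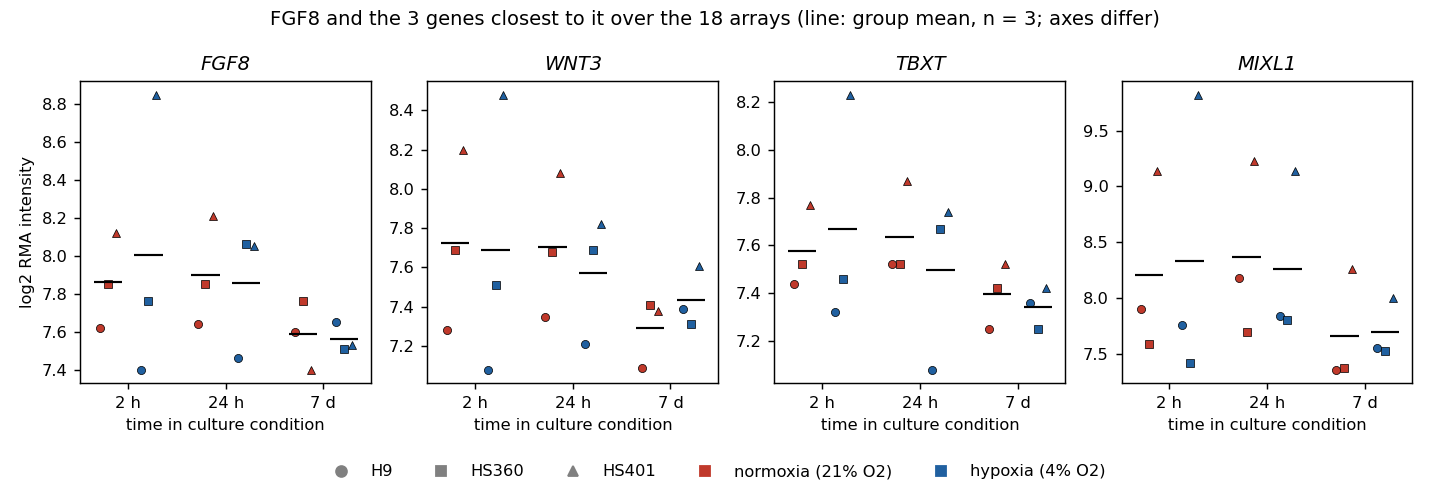
Levels of FGF8, WNT3, TBXT and MIXL1 (log2 RMA intensity, each panel with its own range) by time and oxygen level, with 1 point per array and the group mean as a line (n = 3). The hypoxic HS401 array of 2 h is the highest in all 4 panels, and the HS401 arrays come down at 7 d.

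Among the receptors themselves, FGFR1 and FGFR2 had an r of 0.905, FGFR1 and FGFR3 of 0.740, FGFR1 and FGFR4 of 0.704, FGFR3 and FGFR4 of 0.698, FGFR2 and FGFR3 of 0.593, and FGFR2 and FGFR4 of 0.510. FGF4 had an r of 0.621 with FGFR4 and 0.613 with FGFR3, while FGF2 was below 0 with all 4 receptors, at -0.352 to -0.074. The genes closest to FGFR1 were GAS2L3 (0.968), OSBPL1A (0.967), an oxysterol binding protein, and GALNT12 (0.964), which starts O-linked glycans. For FGFR2 they were FAM234B (0.979), the deubiquitinase USP9X (0.978) and the spindle midzone protein PRC1 (0.978), and for FGFR3 the GABA transaminase ABAT (0.961), the G protein subunit GNG7 (0.955) and NDUFA7 (0.946) of respiratory complex I. For FGFR4 they were the kainate receptor subunit GRIK5 (0.906), ENTPD1 (0.905) and RGL3 (0.900).

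The remaining ligands and FGF13 had other neighbours. FGF4 ran closest to the mitochondrial ribosomal protein MRPL52 (0.945), RNF166 (0.933) and NDUFA6-DT (0.931), FGF2 to CCDC174 (0.833), TANK (0.734) and C1orf52 (0.732), and FGF13 to AACS (0.790), VAV2 (0.783) and IMP3 (0.771). Without removal of the line means, the r of GRIK5 with FGFR4 was -0.00528 and that of CCDC174 with FGF2 was 0.0593, while those of WNT3 and TBXT with FGF8 were 0.914 and 0.918.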

How the data were processed

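RNA of 3 hESC lines was hybridised to Human Exon 1.0 ST arrays. The deposited intensity values were made by the authors with RMA in Chipster, after re-annotation of the probes to Entrez genes with a custom CDF; no version is given in the sources used here. RMA includes quantile normalization, so differences are relative to the other genes of an array. The log2 of the deposited values was analysed with limma 3.58.1 in R 4.3.3 over all 23536 features and 18 arrays, with 6 group means and the line as a fixed block. Every group holds these lines, and 8 of 9 pairs of arrays of a line and time deviated together from their group means (r over 0.1, range -0.00534 to 0.776). Symbols came from the platform table (20727 features named). P-values were adjusted by Benjamini-Hochberg over all features. Median intensities were 131.6 to 160.9, and the number of arrays limits the precision. The fit was tested on simulated data. Named were all 8 members, up to 4 genes a list past a threshold or otherwise the 2 of smallest p, and the 3 genes closest to each member; the text prints a selection of these. Members and lists were chosen with earlier results of these data known. Alternatives left out each line, the block or the 5 low arrays, or changed the block, normalization, filter, variance model or covariates.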

Additional observations from a re-analysis of the deposited data

How the results depend on the processing

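For hypoxia against normoxia, 440 values under the alternatives passed no threshold; the largest was 0.481 and the smallest adjusted p 0.403. Some values that passed nowhere changed sign. Counts of members that passed for 7 d against 2 h over both oxygen levels went from 4 to 2 with no replicate block, to 3 with arrays centred on the median, to 0 with the fibroblast marker mean as a covariate (chosen after the data were seen), and to 1 with any line left out; at the study's thresholds they went from 2 to 0 with that covariate and to 0 without HS360 and 3 without HS401, a range of 0 to 3 with a line left out. For 7 d against 24 h the count of 2 became 1 with no replicate block or with arrays centred on the median, 3 after a second quantile normalization, with features above the median level or with the lower quartile as a covariate, 0 without the 5 low arrays or with the fibroblast covariate, and 0 to 1 with a line left out. At the study's thresholds its 1, FGFR3 at 0.595, became 0 with centred arrays or the fibroblast covariate and 2 with the lower quartile as a covariate. The count stayed at 1 with a line left out. These counts do not follow FGFR3 itself. FGFR3 was at 0.526 with the lower quartile covariate, 0.413 without the 5 arrays and 0.5525 without H9 or without HS401. Each of these lies below the study's fold threshold, as does 0.575 after a second quantile normalization. Without HS360 it was at 0.68, above that threshold. An equal count thus need not stand for the same gene.

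Within normoxia the counts for 7 d against 2 h and against 24 h, 1 each, both became 0 with no replicate block, with the line as a random replicate block, without the 5 arrays, with the fibroblast covariate and with each line left out. Against 2 h the count was 2 after a second quantile normalization, with features above the median level or with eBayes trend and robust, and 3 with the lower quartile covariate; against 24 h it was 2 with that covariate. At the study's thresholds the 2 against 2 h became 1 with centred arrays, 3 without the 5 arrays, 0 with the fibroblast covariate and 1 to 3 with a line left out (1 without HS360, 3 without HS401), and the 2 against 24 h became 1 with no replicate block or centred arrays, 0 without the 5 arrays or with the fibroblast covariate, and 0 to 2 with a line left out. Within hypoxia the 0 against 2 h became 4 after quantile normalization, 3 with features above the median, 2 with eBayes trend and robust and 3 with the lower quartile covariate. The 0 against 24 h became 1, 1, 1 and 2 under the same settings. At the study's thresholds the 2 against 2 h became 3 without the 5 arrays, 0 with no replicate block, centred arrays or the fibroblast covariate and 0 to 1 with a line left out, and the 0 against 24 h became 1 after quantile normalization or with the lower quartile covariate and 0 to 1 with a line left out.

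Between HS401 and H9 the count of 2 became 3 after quantile normalization or with features above the median, 1 with centred arrays or the fibroblast covariate, 4 with the lower quartile covariate and 0 without the 5 arrays. Between HS401 and HS360 the 1 became 2 after quantile normalization, with features above the median or with eBayes trend and robust, and 3 with the lower quartile covariate. The cause of these changes was not tested. The block of the 9 pairs was fitted for the oxygen comparisons, where the count stayed at 0, and the line by time interaction gave no value without the 5 arrays.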
